A study of Homo sapiens with 42 samples.

Results

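The ZFP36 family of mRNA decay factors was followed across untreated and treated K562 cells. Its members are ZFP36 (ENSG00000128016), ZFP36L1 (ENSG00000185650) and ZFP36L2 (ENSG00000152518), 3 of the 58243 genes counted in each RNA fraction, and they were taken by gene identifier from the count table of poly(A) mRNA of whole cells and from the count table of rRNA-depleted RNA of nuclei. K562 is an established leukaemia cell line that carries the BCR-ABL1 fusion kinase. The 42 libraries formed 14 groups of 3. In the mRNA fraction these were untreated cells (CTRL), cells given 1 µM imatinib (IM), a BCR-ABL1 kinase inhibitor, for 1, 6 or 18 hours, cells given 5 µM JTE-607 (JTE), an inhibitor of the mRNA 3′-end endonuclease CPSF73, for 1, 6 or 18 hours, and cells given 110 mM KCl, a hyperosmotic shock, for 1 or 3 hours. In the nuclear fraction they were CTRL, IM 1h, IM 18h, JTE 1h and KCl 1h. No group carried an added allele or transgene. The labels number the libraries of a group as biological replicates, and per the study's methods the treatments were repeated in separate experiments.

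The family was selected on its response in these data. ZFP36 was chosen from its fall in the mRNA comparison of IM 1h with CTRL, so that comparison is given below as a description, with no test, for every member, and every other comparison with the mRNA CTRL group shares the CTRL libraries with it. The nuclear libraries and the comparisons between treatments do not use those CTRL libraries, but results of every group were known when the family was taken up, so their tests are not independent of that choice. Library totals ranged from 16439848 to 62953314 assigned read pairs in mRNA and from 16175394 to 25103205 in nuclear RNA. ZFP36 was the least counted member, with 67 to 1431 read pairs per mRNA library and 166 to 605 per nuclear library, against 1006 to 6954 and 1428 to 2516 for ZFP36L2. All 11 erythroid markers used to check the K562 label reached 1 CPM (read pairs scaled to library size, with TMM factors) in every library, while 4 of 10 markers of other cell types stayed under 1 CPM in every mRNA library. EPCAM, an epithelial adhesion gene, was the highest of the latter, at 75.0 to 108 CPM in mRNA.

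ZFP36 family proteins carry a pair of CCCH zinc fingers that bind AU-rich elements in the 3′ untranslated region (3′UTR) of mRNAs and recruit the CCR4-NOT deadenylase, after which the message is degraded. ZFP36, also called tristetraprolin, is an early response gene of growth factor and stress signalling, and its protein binds the AU-rich element of its own mRNA. ZFP36L1 and ZFP36L2 are related proteins with roles in lymphocyte and blood progenitor cells, and ZFP36L2 is known for its part in the self-renewal of early erythroid progenitors.

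The core sequence bound by the family is the heptamer TATTTAT, best known within the nonamer TTATTTATT. In GENCODE release 44 canonical transcripts the 3′UTR of ZFP36 was 708 bases long, that of ZFP36L1 1871 bases and that of ZFP36L2 1917 bases. Each of the 3 held 3 copies of the heptamer and 1 of the nonamer, whereas the nonamer occurred in 8.43% of 19559 annotated 3′UTRs. That same combination of 1 nonamer and 3 heptamers was found in 184 genes, or 0.941%. The site that holds the nonamer is shown for each member, because the family binds this sequence and all 3 transcripts hold it. Each line runs 5′ to 3′ on the transcribed strand in genome build hg38, with every heptamer in capitals.
ZFP36, chr19:39409188-39409217, plus strand: ccttTATTTATgacgacttTATTTATtcta
ZFP36L1, chr14:68788076-68788105, minus strand: aactgttggatTATTTATtttagaaattcc
ZFP36L2, chr2:43223447-43223476, minus strand: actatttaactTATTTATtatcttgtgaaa
In ZFP36 a pair of heptamers lies within these 30 bases. In ZFP36L1 and ZFP36L2 the copies are further apart, and the 30 bases shown hold 1 each.

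The genes lie on different chromosomes, ZFP36 at 39406813 to 39409412 on chromosome 19, ZFP36L1 at 68787660 to 68796253 on chromosome 14 and ZFP36L2 at 43222402 to 43226609 on chromosome 2 (hg38, as in the count tables). Counting ignored strand, so reads of ZFP36L2 cannot be told apart from reads of the lncRNA ENSG00000287387, which GENCODE places across its 3′ end on the other strand. Reads of ZFP36L1 likewise cannot be told apart from those of the lncRNA ENSG00000289626, which GENCODE places within it on the same strand.

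In untreated cells ZFP36L2 was the most abundant member per exon length. Of the summed CPM per kilobase of the 3 genes in CTRL mRNA, ZFP36L2 held 71.8% ± 6.12 (SD, n = 3), ZFP36 15.2% ± 2.71 and ZFP36L1 13.0% ± 3.54. In CTRL nuclear RNA the shares were 62.5% ± 2.55 for ZFP36L2, 21.7% ± 2.08 for ZFP36 and 15.8% ± 0.776 for ZFP36L1. The ranges of ZFP36 and ZFP36L1 overlapped in mRNA and did not in nuclear RNA. In CPM, not divided by length, ZFP36 measured 11.2, 12.1 and 10.9 in the 3 CTRL mRNA libraries and 19.8, 19.5 and 16.0 in the 3 CTRL nuclear libraries. ZFP36L1 measured 22.3, 30.02 and 22.4 in CTRL mRNA and 34.4, 35.6 and 33.0 in CTRL nuclear RNA. ZFP36L2 measured 91.2, 84.8 and 129 in CTRL mRNA and 102, 91.9 and 98.8 in CTRL nuclear RNA. The CPM of each fraction are relative to their own library totals, so the ratio of nuclear to mRNA CPM, 1.61 for ZFP36, 1.38 for ZFP36L1 and 0.958 for ZFP36L2, orders the genes and does not give the share of transcripts in the nucleus.

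**Figure D1:**
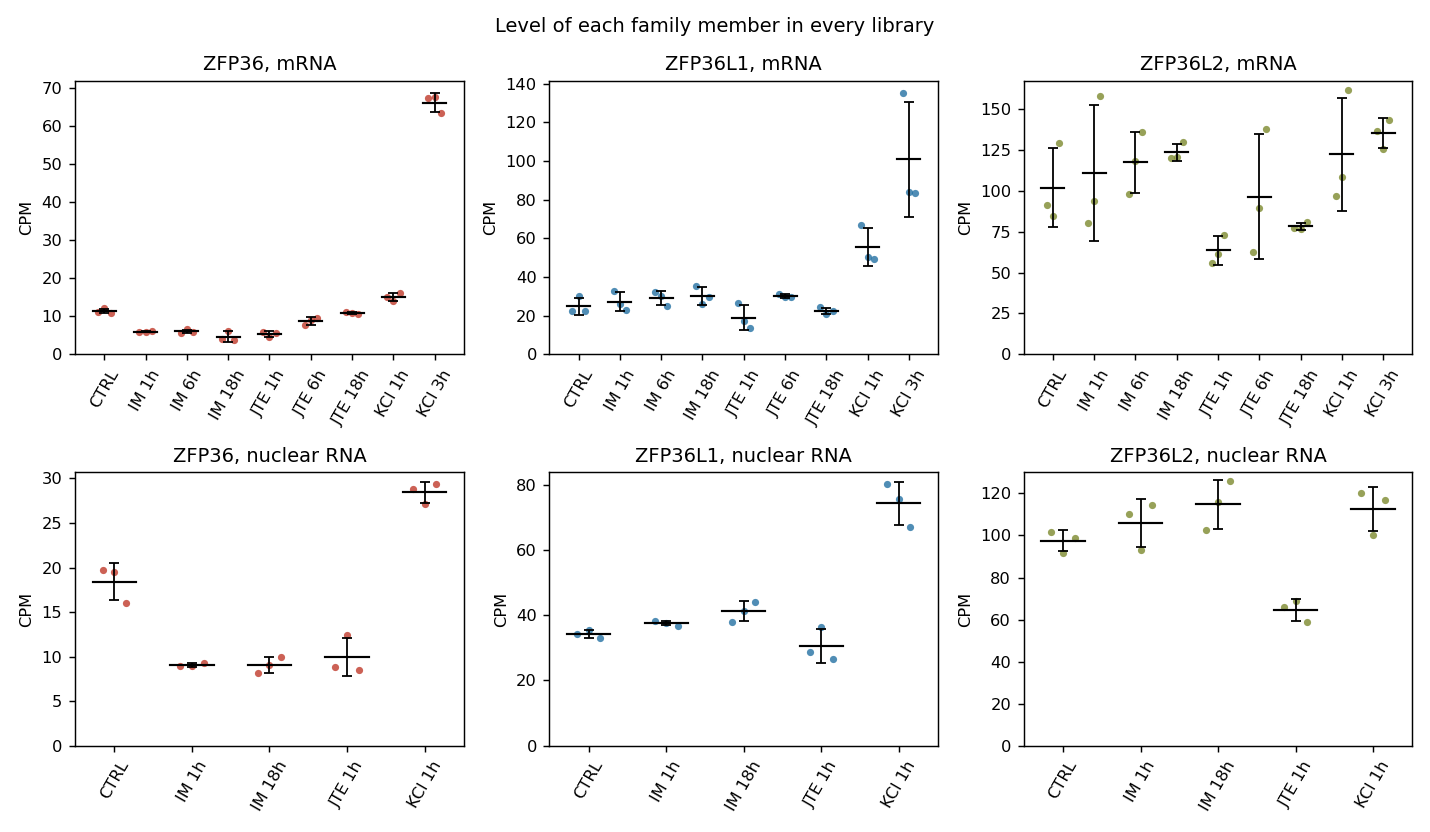
CPM of ZFP36, ZFP36L1 and ZFP36L2 (columns) in every mRNA library (top row) and nuclear library (bottom row), by group; points are libraries, bars the group mean and SD (n = 3). ZFP36 sits lower in IM and JTE 1h than in CTRL and reaches 66.2 CPM at KCl 3h, ZFP36L1 passed the test against CTRL with KCl alone, and the ZFP36L2 ranges overlap between most groups.

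Imatinib lowered ZFP36 in both fractions and at each time tested, while ZFP36L1 and ZFP36L2 did not pass the test in any imatinib comparison with CTRL. A gene was called when its Benjamini-Hochberg adjusted p in edgeR's quasi-likelihood test was under 0.05 and its log2 fold change exceeded 0.6 in size. In mRNA at IM 1h, the comparison that chose the gene, ZFP36 measured 5.96, 5.95 and 6.06 CPM, below every CTRL library, with a fitted log2 fold change of -0.93 ± 0.14 (SE). In nuclear RNA at IM 1h it measured 8.94, 9.001 and 9.32 CPM against 16.0 to 19.8 in CTRL. All 3 libraries were again below all 3 of CTRL, and the log2 fold change was -1.02 ± 0.14 (adjusted p = 0.00407). ZFP36 was 1 of 9 genes that fell in nuclear RNA at IM 1h, 0.041% of the 21929 tested, while 1 gene, or 0.00456%, rose. With the replicate number as a block, 54 genes fell and 15 rose there, and ZFP36 was among those that fell.

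At the later times ZFP36 remained low. At IM 6h it measured 5.52, 6.54 and 6.00 CPM in mRNA, a log2 fold change of -0.92 ± 0.14 (adjusted p = 0.000117), where 4.12% of 18095 genes fell and 5.82% rose. At IM 18h it measured 4.02, 6.21 and 3.69 CPM, a log2 fold change of -1.30 ± 0.15 (adjusted p = 3.91e-07), where 13.2% fell and 17.2% rose. Replicate 2 was the highest of the IM 18h libraries and still lay below the lowest CTRL library. In nuclear RNA at IM 18h the values were 8.12, 9.03 and 9.95 CPM, a log2 fold change of -1.03 ± 0.14 (adjusted p = 5.77e-06), where 15.4% of genes fell and 17.2% rose. Between IM 18h and IM 1h nuclear RNA the log2 difference was -0.01 with a 95% interval from -0.30 to 0.27, in a comparison in which 31.3% of genes were called either way. Between IM 18h and IM 6h mRNA it was -0.37 (adjusted p = 0.129), where 4.41% of genes were called, and the libraries overlapped. Without replicate 2 of IM 18h this difference was -0.64 (adjusted p = 0.0126) and passed.

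ZFP36L1 in imatinib-treated cells stayed between 23.0 and 35.4 CPM in mRNA over all times, overlapping CTRL at each, and ZFP36L2 between 80.4 and 158 CPM. The fitted 95% interval at IM 18h ran from -0.13 to 0.70 on the log2 scale for ZFP36L1 and from -0.20 to 0.76 for ZFP36L2, so a change of up to about the calling threshold in the upward direction is within these intervals. Nuclear RNA gave tighter intervals at IM 18h, 0.04 to 0.48 for ZFP36L1 (adjusted p = 0.0661) and 0.02 to 0.45 for ZFP36L2 (adjusted p = 0.0824). In both genes the 3 nuclear IM 18h libraries lay above the 3 CTRL libraries, at 38.0 to 44.2 against 33.0 to 35.6 CPM for ZFP36L1 and at 103 to 126 against 91.9 to 102 CPM for ZFP36L2. At nuclear IM 1h the intervals were -0.09 to 0.35 for ZFP36L1 and -0.09 to 0.33 for ZFP36L2. The ZFP36L1 libraries there, at 36.8 to 38.2 CPM, also all lay above CTRL, while those of ZFP36L2 overlapped CTRL.

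**Figure D2:**
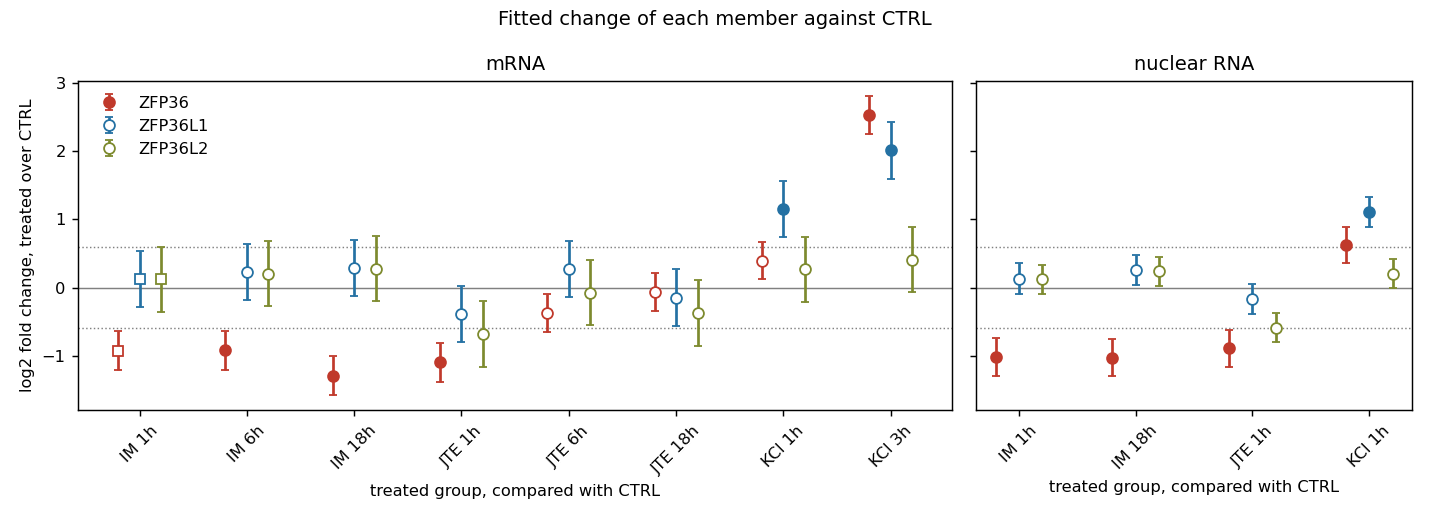
Fitted log2 fold change of each member against CTRL (y axis, with 95% interval) in mRNA (left) and nuclear RNA (right), by treated group; filled circles passed the test, open circles did not, squares mark the IM 1h mRNA comparison that was not tested, and dotted lines stand at 0.6 in each direction. ZFP36 lies at or below -0.89 in every imatinib group and at JTE 1h, and at 2.54 at KCl 3h, while ZFP36L2 has no filled circle.

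JTE-607 lowered ZFP36 at 1 hour, and the later groups stood closer to CTRL. At JTE 1h the mRNA libraries measured 5.92, 4.56 and 5.50 CPM, all below CTRL, with a log2 fold change of -1.10 ± 0.15 (adjusted p = 0.000141), where 0.464% of genes fell and 0.387% rose. Fitted with those groups' 6 libraries only, the log2 fold change was -1.09 and the adjusted p 0.109, and ZFP36 was not called. The nuclear libraries measured 8.86, 12.4 and 8.55 CPM, again below every CTRL library, with a log2 fold change of -0.90 ± 0.14 (adjusted p = 0.00022), where 1.51% of genes fell and 7% rose. At JTE 6h ZFP36 measured 7.69, 8.99 and 9.58 CPM in mRNA, below CTRL in each library, but its log2 fold change of -0.38 did not pass (adjusted p = 0.0675). There 6.47% of genes fell and 6.73% rose. At JTE 18h the values of 11.2, 10.8 and 10.5 CPM overlapped CTRL and the 95% interval was -0.35 to 0.21, while 2.09% of genes fell and 3.29% rose. The rise from JTE 6h to JTE 18h, 0.31 on the log2 scale, did not pass (adjusted p = 0.125), in a comparison where 13.4% of genes were called either way.

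ZFP36L2 stood lower at JTE 1h and was not called in either fraction with all libraries, the low-count filter and no replicate block. It measured 56.1, 61.6 and 73.2 CPM in mRNA and 66.2, 69.1 and 58.7 CPM in nuclear RNA, below every CTRL library of the same fraction. The nuclear log2 fold change of -0.59 ± 0.11 had an adjusted p of 0.00108 and missed only the fold threshold. Leaving out nuclear CTRL replicate 2, JTE 1h replicate 1 or JTE 1h replicate 2 gave calls, at -0.62, -0.60 and -0.65. The mRNA value of -0.68 ± 0.25 had an adjusted p of 0.334, and without the low-count filter it was -0.67 and called (adjusted p = 0.000291). Replicate 3 was the highest ZFP36L2 library in CTRL and in JTE 1h mRNA, and with the replicate number as a block the mRNA log2 fold change of -0.66 was called (adjusted p = 0.0222, and 0.0177 with the numbers of CTRL replicates 1 and 2 exchanged). At JTE 6h ZFP36L2 measured 62.4, 89.3 and 138 CPM in mRNA, overlapping CTRL. ZFP36L1 at JTE 1h overlapped CTRL in both fractions, with 13.5 to 26.4 CPM in mRNA and 26.5 to 36.3 CPM in nuclear RNA. At JTE 18h the ZFP36L2 libraries, at 77.4, 76.8 and 80.8 CPM in mRNA, all lay below CTRL again, and the log2 fold change of -0.38 did not pass (adjusted p = 0.39).

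KCl raised ZFP36 and ZFP36L1. At KCl 1h ZFP36L1 measured 66.9, 50.2 and 49.4 CPM in mRNA, all above CTRL, a log2 fold change of 1.15 ± 0.21 (adjusted p = 0.00086), where 2.51% of genes rose and 2.94% fell. In the same libraries ZFP36 measured 15.01, 13.9 and 16.0 CPM, also all above CTRL, but its log2 fold change of 0.39 ± 0.14 did not pass (adjusted p = 0.106). At KCl 3h ZFP36 measured 67.5, 67.6 and 63.3 CPM, more than in any other mRNA group, and its log2 fold change was 2.54 ± 0.14 (adjusted p = 2.48e-11). ZFP36L1 then measured 135, 83.8 and 83.6 CPM, a log2 fold change of 2.02 ± 0.21 (adjusted p = 4.5e-07). At KCl 3h 4.55% of genes rose and 7.33% fell. Nuclear RNA at KCl 1h gave 80.1, 75.7 and 67.1 CPM for ZFP36L1, a log2 fold change of 1.11 ± 0.11 (adjusted p = 2.31e-07), and 28.8, 27.1 and 29.4 CPM for ZFP36, a log2 fold change of 0.63 ± 0.13 (adjusted p = 0.00107). There 15.3% of genes rose and 8.5% fell. The nuclear call of ZFP36 stood close to the fold threshold, and without replicate 3 of CTRL its log2 fold change was 0.52 and it was not called. ZFP36L2 overlapped CTRL in every KCl group, with 96.8 to 162 CPM at KCl 1h and 125 to 143 CPM at KCl 3h in mRNA, and 100.4 to 120.01 CPM in nuclear RNA.

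From KCl 1h to KCl 3h ZFP36 rose by 2.14 ± 0.14 on the log2 scale (adjusted p = 5.39e-10) and ZFP36L1 by 0.86 ± 0.21 (adjusted p = 0.0117), 2 members among the 1.37% of genes called higher. The ZFP36 libraries of KCl 1h and KCl 3h were far apart. The ZFP36L1 call was lost when replicate 2 or replicate 3 of KCl 1h or replicate 1 of KCl 3h was left out, with log2 differences of 0.80, 0.78 and 0.59, and in a fit of these groups alone (0.85, adjusted p = 0.0936). Replicate 1 was the highest ZFP36L1 library in both KCl groups.

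RefSeq promoter windows (GRCh38.p14, 250 bases before to 50 after a start) were available for ZFP36 and for both starts of ZFP36L1, the members that KCl raised. They were searched on both strands for GCGNGGGCG (EGR-type), TGACGTCA (cyclic AMP response element), TTCNNNGAA (STAT-type), TGGAAA (the core of NFAT-type sites), GGGCGG (GC box) and the CArG box of serum response factor. The ZFP36 window held 3 GC boxes, in capitals below, and none of the other motifs. The downstream ZFP36L1 start held 1 TGGAAA, 1 TGACGTCA and 1 EGR-type match, in that order and in capitals below, while its upstream start held none of the 6.
ZFP36, chr19:39406597-39406896, plus strand: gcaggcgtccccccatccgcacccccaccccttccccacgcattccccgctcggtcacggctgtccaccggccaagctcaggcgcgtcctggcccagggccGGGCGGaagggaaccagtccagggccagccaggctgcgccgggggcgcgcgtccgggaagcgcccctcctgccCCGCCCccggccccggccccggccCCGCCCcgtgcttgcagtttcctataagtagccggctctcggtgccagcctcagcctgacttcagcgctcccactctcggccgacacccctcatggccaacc
ZFP36L1, downstream start, chr14:68793367-68793666, minus strand: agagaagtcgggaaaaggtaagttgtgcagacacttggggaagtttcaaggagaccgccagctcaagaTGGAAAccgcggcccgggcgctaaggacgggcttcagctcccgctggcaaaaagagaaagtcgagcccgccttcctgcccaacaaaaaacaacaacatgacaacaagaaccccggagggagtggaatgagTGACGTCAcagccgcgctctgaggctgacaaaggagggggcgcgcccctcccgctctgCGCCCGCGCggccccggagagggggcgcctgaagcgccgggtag
Of 35116 windows of this length, 45% held a GC box, 20.7% TGGAAA, 9.43% the EGR-type motif, 7.66% the STAT-type motif, 1.85% TGACGTCA and 1.29% a CArG box.

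Set against each other at matched times, the treatments moved the members together in some comparisons and apart in others. At 1 hour all 3 were higher with KCl than with JTE in mRNA, where 2.56% of genes were higher, by 1.49 ± 0.14 for ZFP36, 1.54 ± 0.21 for ZFP36L1 and 0.94 ± 0.25 for ZFP36L2 on the log2 scale. The adjusted p were 6.22e-07, 4.55e-05 and 0.0219, and no ranges overlapped. All 3 were also higher in nuclear RNA, where 10.7% of genes were higher, by 1.52 ± 0.14, 1.28 ± 0.11 and 0.80 ± 0.11 (adjusted p = 1.38e-07, 9.87e-08 and 1.63e-05). The mRNA call of ZFP36L2 was lost without replicate 3 of KCl 1h (log2 difference 0.68, adjusted p = 0.173) or without replicate 1 or replicate 2 of JTE 1h.

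At 1 hour imatinib and JTE-607 differed for ZFP36L2, and no difference was called for ZFP36. In nuclear RNA the log2 difference of IM 1h from JTE 1h was -0.12 for ZFP36, with a 95% interval from -0.40 to 0.16, and 0.71 ± 0.11 for ZFP36L2 (adjusted p = 0.000167), where 0.584% of genes were higher with IM. ZFP36L1 differed by 0.30 (adjusted p = 0.127). At 6 hours ZFP36 was lower with IM than with JTE by a log2 difference of -0.54 ± 0.15, with no overlap of libraries and an adjusted p of 0.00544, just short of the fold threshold. None of the 3 members was called there, against 23.8% of genes called either way. At 18 hours ZFP36 was lower with IM by a log2 difference of -1.23 ± 0.15 (adjusted p = 8.26e-07), where 13.6% of genes were lower. ZFP36L2 was higher with IM at 18 hours by 0.66 ± 0.25 (adjusted p = 0.0345), where 16.7% were higher. That last call was lost on leaving out any of the 6 libraries, with log2 differences of 0.62 to 0.67 and adjusted p from 0.0626 to 0.0898.

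The ratio of 2 members within a library does not depend on scaling between libraries. The log2 ratio of ZFP36 to ZFP36L1 read pairs was -0.996, -1.31 and -1.04 in CTRL mRNA. It lay between -3.14 and -1.92 over the 9 imatinib libraries, with no overlap. The IM 1h libraries among them, at -2.46, -2.12 and -1.92, belong to the comparison that chose ZFP36. Their separation from CTRL is therefore no independent result. In nuclear RNA the ratio was -0.80, -0.87 and -1.04 in CTRL and between -2.23 and -1.98 over the 6 imatinib libraries. The ratio of ZFP36L1 to ZFP36L2 differed little under imatinib, where its group means differed from CTRL by 0.04, 0.02 and -0.02 at IM 1h, 6h and 18h in mRNA and by 0.02 and 0.03 at IM 1h and 18h in nuclear RNA, and the libraries overlapped CTRL in every case. At KCl 3h the same ratio was higher by 1.56 and the ratio of ZFP36 to ZFP36L2 by 2.11, both without overlap. The ratio of ZFP36 to ZFP36L1 was higher there by 0.54, with overlap. That ratio was also lower than CTRL without overlap outside imatinib. It differed by -0.76 at KCl 1h and -0.68 at JTE 6h in mRNA, and by -0.72 at JTE 1h and -0.48 at KCl 1h in nuclear RNA. With 3 libraries against 3 the smallest p of a two-sided exact permutation test is 0.1. It was reached in 17 of 33 such tests (smallest adjusted p 0.194), so these ratios are descriptions.

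**Figure D3:**
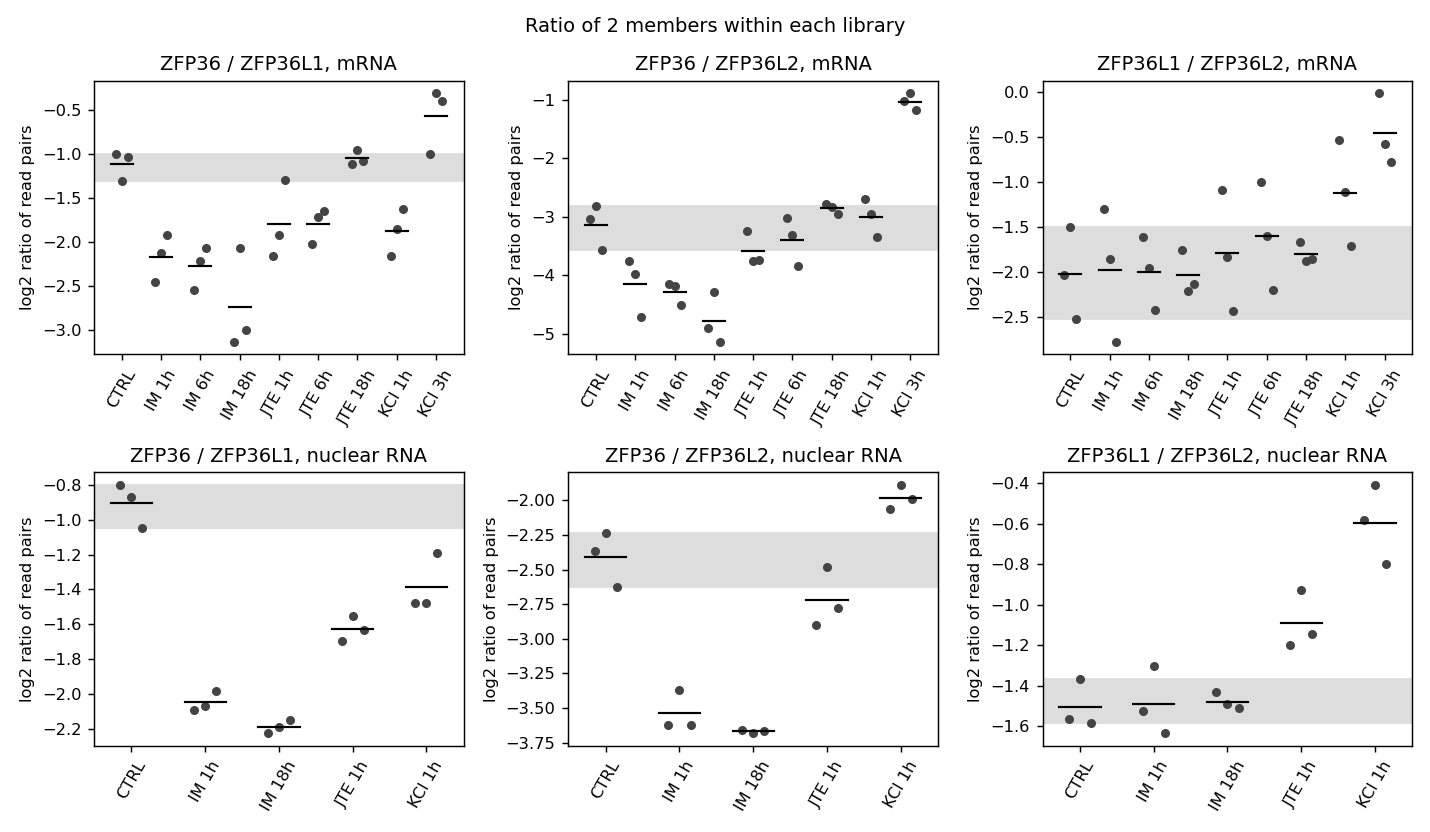
Log2 ratio of the read pairs of 2 members within each library (y axis) by group, in mRNA (top row) and nuclear RNA (bottom row); points are libraries, bars group means, and the grey band spans the CTRL libraries. Both ratios that hold ZFP36 drop below the band in the imatinib groups, of which IM 1h mRNA was used to choose ZFP36. The group means of the ratio of ZFP36L1 to ZFP36L2 lie within the band in those groups. Single libraries leave it, such as -1.30 and -2.78 at IM 1h in mRNA.

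The sum of the family, most of which is ZFP36L2, moved less than ZFP36 itself under imatinib. From CTRL to IM 18h mRNA the mean of ZFP36 went from 5.67 to 2.31 CPM per kilobase. That of ZFP36L1 went from 4.83 to 5.88 and that of ZFP36L2 from 27.5 to 33.4, and neither passed the test. The summed level of the 3 genes was 38.0 ± 5.85 CPM per kilobase in CTRL mRNA (SD, n = 3) and 38.2 ± 10.4, 40.4 ± 4.58 and 41.6 ± 0.941 at IM 1h, 6h and 18h. It was lowest at JTE 1h, 23.6 ± 1.47, and highest at KCl 3h, 89.0 ± 6.89. Neither of these overlapped CTRL, whose libraries measured 34.6, 34.8 and 44.8, nor did KCl 1h (51.3 ± 8.68) or JTE 18h (31.0 ± 0.639). ZFP36 took 5.57% ± 1.76 of the sum at IM 18h and 37.1% ± 2.79 at KCl 3h, where ZFP36L2 took 41.2% ± 3.36. In nuclear RNA the sum was 42.2 ± 1.61 in CTRL, 40.4 ± 3.06 at IM 1h, 43.6 ± 4.201 at IM 18h, 28.3 ± 3.33 at JTE 1h and 59.0 ± 3.50 at KCl 1h, of which the last pair did not overlap CTRL.

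**Figure D4:**
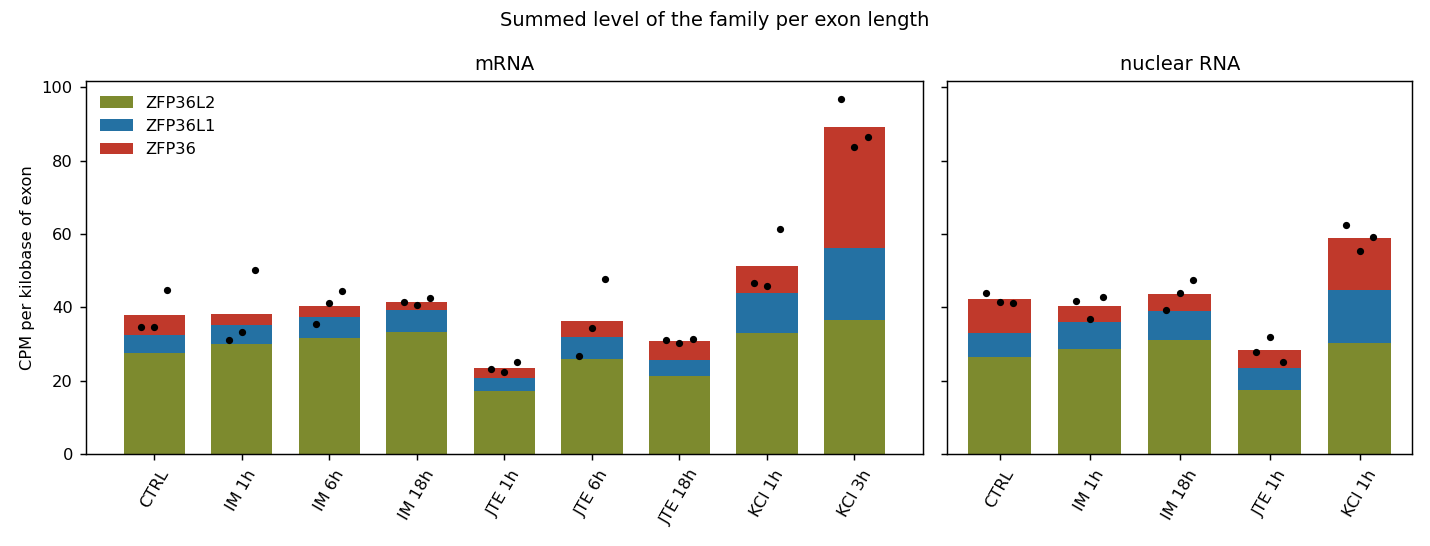
Summed level of the 3 members in CPM per kilobase of exon (y axis) by group, in mRNA (left) and nuclear RNA (right); stacked bars are means over 3 libraries, split by member, and points are the libraries' sums. The bar of KCl 3h reaches 89.0, with a far larger ZFP36 part than in CTRL, and that of JTE 1h mRNA is the lowest at 23.6.

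The responses in nuclear RNA and mRNA did not differ detectably for any member. In a fit of both fractions, the nuclear minus mRNA difference in the response of ZFP36 was 0.32 at IM 18h (95% interval -0.17 to 0.81), 0.23 at JTE 1h (-0.23 to 0.69) and 0.13 at KCl 1h (-0.23 to 0.49). For ZFP36L1 and ZFP36L2 the differences ran from -0.16 to 0.24. The lowest adjusted p among the members was 0.917, and 0 of 9 tests had an unadjusted p under 0.05, with the lowest at 0.217. Over all genes 0.0901% were called at IM 18h, 0.0605% at JTE 1h and 0.668% at KCl 1h. The same fit recovered 27.5% of genes changed in simulated data of the IM 18h comparison. Differences as large as the simulated ones would therefore often be missed.

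In mRNA most of the pathway genes that fell under imatinib were described targets of the family. The 113 genes stood in 6 lists written for the pathway with earlier results of these data known. Of them, 102 passed the filter on low counts in mRNA and 106 in nuclear RNA. Among those tested, 9 rose and 28 fell at IM 18h mRNA, or 8.82% and 27.5% against 17.2% and 13.2% of all genes. Their median log2 fold change was -0.24 against 0.04 over all genes. At IM 6h 1 rose and 17 fell, or 0.98% and 16.7% against 5.82% and 4.12% of all genes. The list of described targets, which includes ZFP36, gave 16 of the 28 falls at IM 18h and 14 of the 17 at IM 6h. ZFP36 was chosen for its fall, so these counts are a description and no independent result. Of the 16, BCL2, CXCL2, CXCL3, CXCL8, FOS, IL23A, IL6 and PLAU were low-abundance genes that stood between 0.754 and 4.40 CPM in CTRL mRNA. In nuclear RNA at IM 18h the list gave 15 of the 30 falls. In the other 5 lists, with 76 genes tested in mRNA, 6 rose and 12 fell at IM 18h, or 7.89% and 15.8% against 17.2% and 13.2% of all genes. At IM 6h 1 rose and 3 fell in those 5 lists, or 1.32% and 3.95% against 5.82% and 4.12% of all genes. In nuclear RNA 9 rose and 30 fell at IM 18h, or 8.49% and 28.3% against 17.2% and 15.4% of all genes. At nuclear IM 1h 1 fell, ZFP36 itself (4 with the replicate block), or 0.943% against 0.041% of all genes. With JTE in mRNA 0 rose and 2 fell at 1 hour, 2 rose and 6 fell at 6 hours, and 1 rose and 5 fell at 18 hours. With KCl in mRNA 7 rose and 0 fell at 1 hour. The 7 were 6.86% of the listed genes tested against 2.51% of all genes, while 2.94% of all genes fell. At KCl 3h 8 rose, or 7.84% against 4.55% of all genes, and 2 fell. At nuclear KCl 1h 9 rose, or 8.49% against 15.3% of all genes, and 0 fell, where 8.5% of all genes did. The nuclear JTE 1h comparison had 1 up and 5 down, or 0.943% and 4.72% against 7% and 1.51% of all genes.

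Among 14 deadenylase subunits, the enzymes that shorten the poly(A) tail, PAN2 rose at IM 18h from 29.96 ± 0.768 to 73.3 ± 4.54 CPM, a log2 fold change of 1.29 ± 0.15 (adjusted p = 4.63e-07), and CNOT7, a catalytic subunit of CCR4-NOT, fell from 161 ± 17.3 to 104 ± 6.54 CPM (log2 fold change -0.63 ± 0.12). Those were the only 2 of the 14 called at IM 18h mRNA, 7.14% in each direction against 17.2% of all genes higher and 13.2% lower. Of 15 decapping and 5′ to 3′ decay genes, 2 rose, or 13.3% against 17.2% of all genes, and 0 fell at IM 18h mRNA: XRN1, the cytoplasmic 5′ to 3′ exonuclease, from 57.0 ± 15.9 to 139 ± 17.1 CPM (log2 fold change 1.29 ± 0.22), and the decapping enzyme DCP2 by 0.62 ± 0.18. Of 15 genes of the cytoplasmic exosome and SKI complex, which degrade RNA from the 3′ end, 6 fell and 0 rose at IM 18h and 4 fell and 0 rose at JTE 6h. Those falls were 40% of the list against 13.2% of all genes at IM 18h, and 26.7% against 6.47% at JTE 6h. The largest decrease in mRNA was that of the exosome subunit EXOSC4 at JTE 6h, from 10.9 ± 1.21 to 4.203 ± 1.27 CPM (log2 fold change -1.38 ± 0.22, adjusted p = 5.29e-05).

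Other proteins that bind AU-rich or stem-loop elements mostly did not pass: of 15 tested in mRNA, 2 rose at KCl 1h, 1 rose at KCl 3h and 1 fell at IM 6h and at IM 18h. The rises were 13.3% against 2.51% of all genes at KCl 1h and 6.67% against 4.55% at KCl 3h. The falls were 6.67% against 4.12% at IM 6h and 6.67% against 13.2% at IM 18h. ZC3H12A (Regnase-1), an endonuclease that cleaves stem-loops in inflammatory mRNAs, rose at KCl 3h from 7.80 ± 1.15 to 34.0 ± 6.83 CPM, a log2 fold change of 2.12 ± 0.19 (adjusted p = 2.54e-08). Its relative ZC3H12C fell at IM 18h from 7.33 ± 0.508 to 2.65 ± 0.442 CPM, a log2 fold change of -1.47 ± 0.19 (adjusted p = 2.2e-06). Of 17 kinases, phosphatases and 14-3-3 proteins that act on ZFP36, 3 rose and 4 fell at IM 18h mRNA, or 17.6% and 23.5% against 17.2% and 13.2% of all genes. The largest rise of the list in mRNA was that of the p38 kinase MAPK13 at JTE 6h, from 0.765 ± 0.218 to 6.03 ± 2.75 CPM (log2 fold change 2.98 ± 0.38). The largest fall in mRNA was that of the 14-3-3 gene SFN at IM 18h, from 2.21 ± 0.494 to 0.539 ± 0.106 CPM (log2 fold change -2.02 ± 0.32). Both are low-abundance genes in these cells.

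Messages described elsewhere as targets of the family, 35 genes of which 26 were tested in mRNA, included 15 with a group mean of at least 10 CPM. Of these, 10 that passed the test in some comparison with CTRL are described here, and ZFP36 is itself 1 of them. The other 9 are growth and early response genes: the transcription factors MYC and FOS, the kinase PIM1, the survival factor MCL1, the cyclins CCND1 and CCNE2, the receptor NOTCH1, the early response gene IER3 and the phosphatase DUSP1. Over the whole list, 0 rose and 14 fell at IM 6h, 3 rose and 16 fell at IM 18h, and 5 rose and 1 fell at KCl 3h, ZFP36 included. The falls were 53.8% of those tested against 4.12% of all genes at IM 6h, and 61.5% against 13.2% at IM 18h. The rises were 11.5% against 17.2% at IM 18h and 19.2% against 4.55% at KCl 3h. The fall at KCl 3h was 3.85% against 7.33%. At IM 6h 7 of the 9 fell and 0 rose, and at IM 18h 7 fell and 1, DUSP1, rose, in mRNA and in nuclear RNA alike. The 9 were kept because they were called in some comparison, so a high share of calls among them is built in. Another 4 of the 15 were called in no comparison with CTRL. FOS and IER3 stood at 2.25 and 8.78 CPM in CTRL mRNA and at 46.7 and 71.4 CPM at KCl 3h. The fall of FOS at IM 18h mRNA ended at 0.124 CPM, near the floor. MYC had a log2 fold change of -1.58 ± 0.29, PIM1 of -1.85 ± 0.47 and MCL1 of -1.11 ± 0.11 at IM 18h mRNA. At KCl 3h 3 of the 9 rose, FOS by 4.37 ± 0.50, IER3 by 3.02 ± 0.31 and DUSP1 by 1.97 ± 0.15, and 0 fell. At JTE 1h DUSP1 alone among the 9 fell in mRNA, with a log2 fold change of -0.78 ± 0.15, and DUSP1, FOS and IER3 fell in nuclear RNA. These genes were listed with their behaviour in these libraries known, so the counts describe the genes. The counts were not used as a measure of the activity of the family. Whether the responses of these targets differed between nuclear RNA and mRNA was not tested. Of the 10, 5 hold the nonamer in their 3′UTR, namely ZFP36, DUSP1, PIM1, NOTCH1 and FOS.

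**Figure D5:**
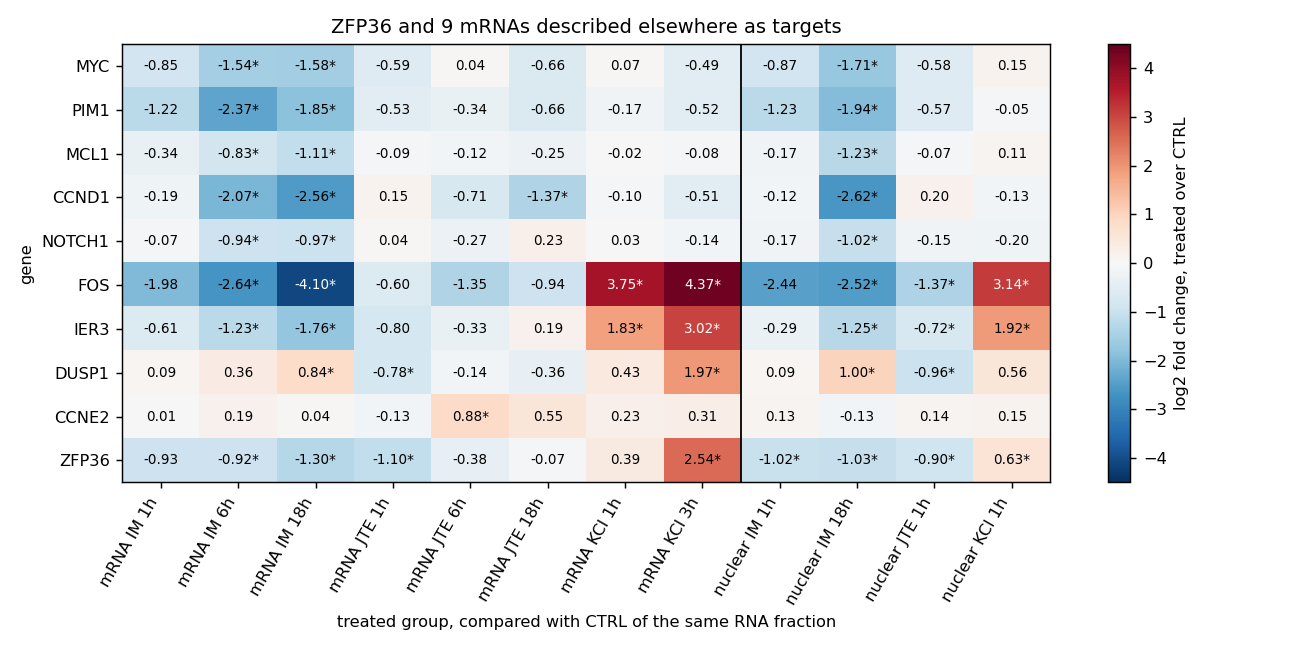
Fitted log2 fold change against CTRL (colour and printed value) of 9 mRNAs described elsewhere as targets and of ZFP36 (rows) in each treated group (columns, mRNA left of the line and nuclear RNA right); an asterisk marks a call, and IM 1h mRNA was not tested. Apart from ZFP36, 7 of the 9 fell in the IM 6h column and in both IM 18h columns, DUSP1 rose in the latter, and the KCl columns show rises of FOS, IER3, DUSP1 and ZFP36.

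The wider class of messages with a nonamer in the 3′UTR showed small differences from other genes. In mRNA 1162 tested genes held it, of 12663 with an annotated 3′UTR, and their 3′UTRs were longer, with a median of 3044.5 against 1262 bases. The class median log2 fold change was -0.01 at IM 1h, -0.01 at IM 6h and -0.04 at IM 18h, against 0.00, 0.01 and -0.02 over all these genes, and 0.05 at KCl 1h and -0.01 at KCl 3h against 0.02 and 0.04. At IM 6h 97 of the class fell, or 8.35%, against 5.09% of all, and 49 rose, or 4.22%, against 5.47%. At IM 18h 18.0% fell against 15.3% of all and 13.0% rose against 15.7%. At KCl 3h 7.31% fell against 4.92% and 4.56% rose against 4.45%. At JTE 1h 12 of the class fell, or 1.03%, against 0.419% of all. Smaller shares of the class than of all genes fell at JTE 6h, 5.59% against 6.74%, at JTE 18h, 1.98% against 2.33%, and at nuclear KCl 1h, 2.07% against 2.31%. These shares were not tested, and the part that 3′UTR length has in them was not tested.

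By the rule of likeness, the highest Pearson correlation of the mean log2(CPM + 0.5) over the 9 mRNA groups among 8719 genes with a mean of at least 10 CPM, the genes most like ZFP36 were ZC3H12A (r = 0.97), INSIG1 (r = 0.96) and IER3 (r = 0.95). Over the 5 nuclear groups their r with ZFP36 were 0.87, 0.74 and 0.91. All 3 peaked at KCl 3h, ZC3H12A at 34.0 CPM, IER3 at 71.4 CPM from 8.78 in CTRL, and INSIG1, a regulator of sterol synthesis, at 737 CPM from 306. For ZFP36L1 they were ID2, an inhibitor of basic helix-loop-helix transcription factors (r = 0.99 in mRNA and 0.90 in nuclear RNA), the early response nuclear receptor NR4A2 (0.98 and 0.97) and LMLN (0.97 and 0.90). NR4A2 went from 7.35 CPM in CTRL to 64.6 CPM at KCl 3h. For ZFP36L2 they were RSRC2, KMT2C and COG6, with r from 0.90 to 0.92 in mRNA and 0.23 to 0.48 in nuclear RNA. Over the 27 single mRNA libraries the r of RSRC2 with ZFP36L2 was -0.011. The points share libraries and the CTRL group, and the KCl groups of ZFP36 and ZFP36L1 lie far from the rest.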

How the data were processed

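Poly(A) mRNA of whole K562 cells and rRNA-depleted RNA of nuclei were sequenced in paired ends. Per the study's methods, the authors trimmed and deduplicated the reads with fastp, aligned them with STAR to hg38, kept unique alignments and counted read pairs over the exons of each gene with featureCounts, with no strand setting stated. The deposited values are these raw counts. The annotation release is not given in the sources used here. Removing duplicates by sequence alone can undercount short, abundant transcripts, and an antisense gene can add read pairs to a member. Every sample column was matched to a label (0 unmatched).

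Genes that passed filterByExpr were fitted with edgeR 4.0.16 in R 4.3.3 (TMM factors, robust quasi-likelihood test, all libraries of a fraction in 1 fit), 18095 genes in mRNA and 21929 in nuclear RNA. P-values were adjusted by the Benjamini-Hochberg method over all genes of a comparison, and the thresholds were 0.05 for the adjusted p and 0.6 for the size of the log2 fold change. Fractions were compared by an interaction term in the libraries concerned. The 95% intervals came from the fitted standard errors by normal quantiles. On simulated data with 200 changed genes the fits recovered 86% for IM 18h mRNA, among 18095 genes, and 90.5% for IM 18h nuclear RNA, among 21929. The changed genes were drawn from the better-counted ones, with 1 fixed spread between libraries for all genes. CPM in the text include TMM factors. Library totals bound the precision, and ZFP36 had the lowest counts of the members.

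The replicate numbers come from the labels, and whether they pair libraries was checked in the data, over genes with a mean of at least 10 CPM. Deviations from the group means of same-numbered libraries of nuclear CTRL and each of the 4 treated nuclear groups correlated at 0.235 to 0.891, all above the minimum of 0.1, so the numbers pair them. In mRNA they did not pair CTRL with the treated groups, and an alternative with the numbers of CTRL replicates 1 and 2 exchanged was added after the data were seen. Blocked values are given where they changed a result.

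The text names the 3 members throughout, the genes of each decay list that were called with the greatest increase and decrease against CTRL in mRNA, the called targets with a mean of at least 10 CPM in a group (1 of them is not reported here), and the 3 genes most correlated with each member. A gene outside this rule is background or a check. The members and lists were chosen with earlier results of these data known. Motifs were searched in 3′UTRs of GENCODE release 44 canonical transcripts. Alternatives were DESeq2 1.42.0, RLE factors, no low-count filter, the adjusted p alone, the replicate block, fits of 2 groups only and leaving out each library.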

Additional observations from a re-analysis of the deposited data

How the results depend on the processing

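Apart from leaving out libraries and from the untested IM 1h mRNA comparison, 393 of 405 alternative values of the members kept their direction and side of the threshold, and DESeq2 changed none of its 69. Of the 22 member calls, 17 held under every alternative, leaving out each library included. In fits of 2 groups only, ZFP36 at JTE 1h mRNA (-1.09), ZFP36 at nuclear KCl 1h (0.58), ZFP36L1 between KCl 3h and KCl 1h (0.85) and ZFP36L2 between KCl 1h and JTE 1h (0.93) were no longer called. Without the low-count filter ZFP36 at nuclear KCl 1h (0.59) and ZFP36L2 between IM 18h and JTE 18h (0.58) were not called, and ZFP36L2 at JTE 1h mRNA (-0.67) was. On the adjusted p alone ZFP36 between IM 6h and JTE 6h (-0.54) and ZFP36L2 at nuclear JTE 1h (-0.59) were called. Uncalled values near 0 changed sign for ZFP36 between nuclear IM 18h and IM 1h with RLE factors (0.013) and for the fraction difference of ZFP36L2 at IM 18h without the filter (-0.0068). The cause was not tested.

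With the replicate number as a block, ZFP36L2 at JTE 1h mRNA was called (-0.66, adjusted p = 0.0222), and no other member call changed. In mRNA the numbers of CTRL paired with those of 0 of 8 treated groups, with correlations of deviations from -0.368 to 0.877, while 20 of 28 pairs of treated mRNA groups paired among themselves (-0.301 to 0.845). The mapping statistics of the study list the totals of a pair of these CTRL libraries under each other's number. With the numbers of CTRL replicates 1 and 2 exchanged, an alternative chosen after the data were seen, CTRL paired with 7 of 8 treated groups (0.0553 to 0.877, JTE 18h not). That block kept 38 of 39 member results on their side of the threshold, the exception again being ZFP36L2 at JTE 1h (-0.66, adjusted p = 0.0177). It gave 3 listed genes higher at IM 6h, 4 lower at JTE 1h and 4 lower at KCl 3h, and over all genes 280 calls at JTE 1h, 1575 at JTE 18h and 1527 between IM 18h and IM 6h. The block by the numbers as labelled moved all calls at JTE 1h mRNA from 154 to 258, between IM 18h and IM 6h from 798 to 1368 and at nuclear IM 1h from 10 to 69. It moved listed genes higher at IM 6h from 1 to 3, lower at KCl 3h from 2 to 4 and lower at nuclear IM 1h from 1 to 4.

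Leaving out 1 library at a time, log2 values ran as follows where a call or a sign changed. For ZFP36 they ran from -0.63 to -0.48 between IM 6h and JTE 6h, from -0.64 to -0.23 between IM 18h and IM 6h, from 0.52 to 0.66 at nuclear KCl 1h, from -0.22 to 0.065 between nuclear IM 1h and JTE 1h and from -0.086 to 0.060 between nuclear IM 18h and IM 1h. The untested fraction difference at IM 1h ran from -0.18 to -0.024. For ZFP36L1 they ran from -0.23 to 0.0062 at JTE 18h, from -0.12 to 0.056 between IM 6h and JTE 6h, from -0.077 to 0.15 between IM 18h and IM 6h, from 0.59 to 1.02 between KCl 3h and KCl 1h, and for the fraction difference from -0.11 to 0.17 at IM 18h, from -0.00054 to 0.53 at JTE 1h and from -0.27 to 0.0017 at KCl 1h. For ZFP36L2 they ran from -0.42 to 0.16 at JTE 6h, from 0.62 to 0.67 between IM 18h and JTE 18h, from 0.68 to 1.07 between KCl 1h and JTE 1h, from -0.045 to 0.18 between IM 18h and IM 6h, from -0.53 to 0.045 between JTE 18h and JTE 6h, from -0.65 to -0.53 at nuclear JTE 1h, and for the fraction difference from -0.16 to 0.14 at IM 18h, from -0.12 to 0.22 at JTE 1h and from -0.38 to 0.036 at KCl 1h.

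Over the 6 decay lists, the adjusted p alone gave 6 genes higher and 26 lower at IM 6h, 16 and 48 at IM 18h, 6 higher at JTE 6h, 2 higher and 14 lower at JTE 18h, 5 lower at KCl 3h, 20 higher and 48 lower at nuclear IM 18h, and 15 higher and 3 lower at nuclear KCl 1h, and DESeq2 gave 4 lower at nuclear IM 1h. Leaving out a library, the genes higher numbered 1 to 4 at IM 6h (4 without CTRL replicate 2) and 2 to 4 at JTE 6h (4 without JTE 6h replicate 2). The genes lower numbered 1 to 3 at JTE 1h (1 without CTRL replicate 3 or JTE 1h replicate 3), 3 to 4 at JTE 18h (3 without CTRL replicate 2 or JTE 18h replicate 3), 2 to 4 at KCl 3h (4 without CTRL replicate 1), 1 to 2 at nuclear IM 1h (2 without CTRL replicate 3 or IM 1h replicate 2), 3 to 5 at nuclear JTE 1h (3 without CTRL replicate 2, JTE 1h replicate 1 or JTE 1h replicate 3) and 0 to 2 at nuclear KCl 1h (2 without KCl 1h replicate 2). The median of the class with a nonamer moved beyond the spread of libraries in 12 of 108 alternatives and lay between -0.12 and 0.14 in all of them. Of the 3 genes named as most like each member, ranking by Spearman's rho shared 1 for ZFP36 and 0 for each of the others, and ranking over the 27 libraries shared 1 for ZFP36 and 0 for ZFP36L2.

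Counts over all genes moved by more than 1.5 times in places. In fits of 2 groups only they went from 154 to 5 at JTE 1h, from 986 to 465 at KCl 1h, from 777 to 299 between KCl 1h and JTE 1h and from 596 to 294 between KCl 3h and KCl 1h. Without the filter they were 237 at JTE 1h, 1170 between KCl 1h and JTE 1h, 990 between KCl 3h and KCl 1h, 1213 between IM 18h and IM 6h, 48 at nuclear IM 1h, 8022 from 5227 at nuclear KCl 1h and 5517 from 3489 between nuclear KCl 1h and JTE 1h. DESeq2 called 30 at nuclear IM 1h. On the adjusted p alone 2898 were called at IM 6h against 1799, 1510 between IM 18h and IM 6h, 1663 at JTE 18h against 975 and 3938 between JTE 18h and JTE 6h against 2431. The alternatives gave 141 to 400 interaction calls at KCl 1h against 141, 8 to 62 at JTE 1h against 12 and 17 to 61 at IM 18h against 18. Leaving out 1 library gave as few as 62 at JTE 1h (without its replicate 3), 577 at JTE 18h (without its replicate 3), 364 between KCl 3h and KCl 1h (without KCl 1h replicate 2) and 4 at nuclear IM 1h (without CTRL replicate 2), and 182 to 1474 between IM 18h and IM 6h (without IM 6h replicate 1 and replicate 3).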
